A study of Homo sapiens with 4 samples.

Results

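The expression of 9 genes that the tumour suppressor p53 switches on was described in Hs746T cells in which the receptor tyrosine kinase MET was blocked with a drug or knocked down with an siRNA. The genes were MDM2, GDF15, TP53INP1, SESN1, ZMAT3, FDXR, BTG2, RRM2B and TP53I3, chosen as established p53 targets, with earlier results of these data known. They were 9 of the 18755 named genes with a probe measured on every array, and all of their probes were taken, 14 of 34127. Hs746T is a gastric carcinoma cell line that carries MET amplification together with a mutation that skips MET exon 14. All cells grew in DMEM with 10% fetal bovine serum, and the conditions were the vehicle DMSO, the MET kinase inhibitor PHA665752, a scrambled control siRNA (sc siRNA) and MET siRNA, the transfected cells having been harvested after 48 h. The dose and duration of PHA665752 for the arrays are not given in the sources used here. Each condition was hybridised to 1 array, so no difference has a replicate check, a test or a p-value, and all 4 arrays lay on 1 slide.

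The transcription factor p53 is kept low in unstressed cells by the ubiquitin ligase MDM2, which is itself a p53 target, so that the factor and its inhibitor form a feedback loop. DNA damage and other stresses release p53, which then binds a response element made of a pair of short sites and switches on genes for cell cycle arrest, DNA repair, antioxidant defence, metabolism and cell death. Several of these genes also answer to other factors, among them the FOXO proteins and the stress factor ATF4, and a change of their mRNA alone does not identify p53 as the source.

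The promoter sequences below show where letters resembling the p53 response element lie beside the starts of 4 of the genes. RefSeq (GRCh38.p14) windows from 250 bases before to 50 bases after each annotated start were searched for the p53 response element consensus, a pair of 10-base sites with no spacer, allowing at most 3 mismatches in 20 bases. The consensus reads the same on both strands. Windows were found for 7 of the 9 genes, those of TP53INP1 and RRM2B not being used here, and 4 genes held a match. In all, 5 of their 14 windows (35.7%) matched, beside 1826 of 35116 windows (5.2%) of all genes, and the tolerance was chosen after the matches had been seen. Several starts of a gene give overlapping windows, so the 14 are not independent. Capitals mark the matched bases, and each sequence is written 5′ to 3′ on the strand of its gene. MDM2 (chr12:68808907-68808996, plus strand) held a pair of matches in its internal promoter, beginning 94 and 56 bases before the start, with 2 and 3 mismatches. SESN1 (chr6:109008989-109009068, minus strand) held a match beginning 49 bases before the start, FDXR (chr17:74872995-74873074, minus strand) a match 21 bases before it, and GDF15 (chr19:18386178-18386207, plus strand) a match beginning 28 bases after it, each with 3 mismatches.
MDM2: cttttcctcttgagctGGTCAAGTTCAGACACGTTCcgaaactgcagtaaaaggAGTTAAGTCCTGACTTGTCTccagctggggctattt
SESN1: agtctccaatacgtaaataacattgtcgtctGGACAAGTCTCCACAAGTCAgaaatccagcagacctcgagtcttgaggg
FDXR: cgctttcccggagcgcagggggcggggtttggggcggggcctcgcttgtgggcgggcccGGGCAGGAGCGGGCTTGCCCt
GDF15: acctgcacAGCCATGCCCGGGCAAGAACtc
The windows of BTG2, TP53I3 and ZMAT3 held no match at this tolerance, which says only that these letters are not in the searched bases. A match is a likeness of letters and not a measured binding site.

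Signals are given as the scanner software's processed intensity, in the order DMSO, PHA665752, sc siRNA and MET siRNA, and a log2 ratio was taken after subtracting the 75th percentile of each array on the log2 scale, which lay at 990.05, 853.5, 831 and 858 in signal. The MET siRNA array had 5.58% of its spots marked as outliers and 61.1% of its probes well above background, against 1.69 to 2.21% and 67.4 to 68.2% on the other arrays, and its part in the ratios was not tested. The error given with a ratio is the scanner software's own error estimate, which covers the measurement of a spot and not the difference between cultures. For bright probes it was nearly the same, 0.20, whatever the signal, so there it does not tell 1 probe from another. Each array holds the RNA of a whole culture, so a change in some cells and a change in every cell cannot be told apart. As a check of the labels, MET itself had signals of 221450, 100490, 190010 and 77853, log2 ratios of −0.93 ± 0.20 for PHA665752 over DMSO and −1.33 ± 0.20 for MET siRNA over sc siRNA, while sc siRNA lay within 0.032 of DMSO. MET mRNA was thus lower on both treated arrays.

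**Figure D1:**
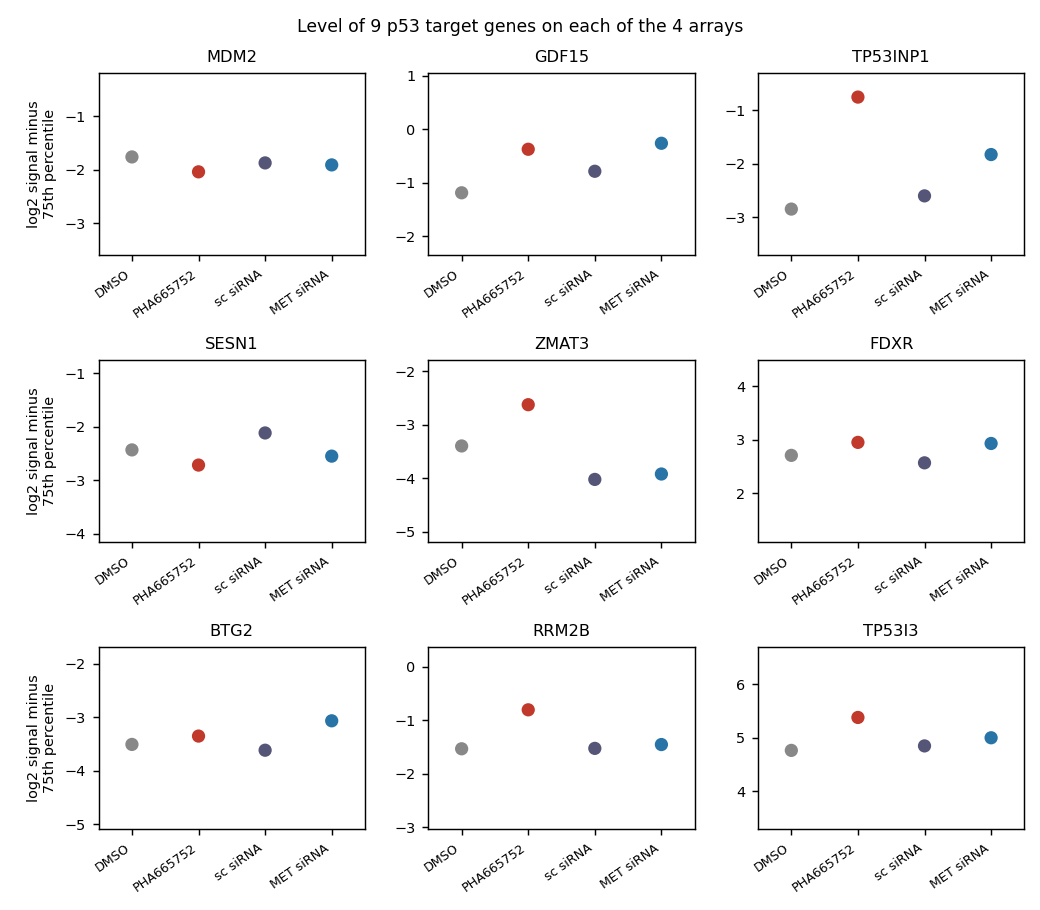
Level of each of the 9 p53 target genes on the 4 arrays, as log2 signal of the gene's brightest probe minus the 75th percentile of the array (vertical axis, the same span in every panel, 1 point per array). TP53INP1 was higher with PHA665752 (signal 507) than with DMSO (138), sc siRNA (137) or MET siRNA (242), whereas the 4 points of MDM2 lay close together.

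MDM2, the feedback inhibitor of p53, did not come out higher with either treatment at any of its 3 probes. The brightest probe read 292, 208, 227 and 228. PHA665752 stood at −0.28 ± 0.21 over DMSO in log2, and MET siRNA at −0.037 ± 0.21 over sc siRNA. After scaling the DMSO array was still the highest, at −1.76 against −2.04, −1.87 and −1.91 on the others in the same order. The second probe read 147, 94.9, 94.4 and 96.1 and repeated that order of DMSO against the rest, with log2 ratios of −0.42 ± 0.21 and −0.021 ± 0.21. The third probe, averaged over 10 spots, read 27.5, 17.2, 19.3 and 16.6. It gave −0.46 ± 0.33 with PHA665752 and, since it was not well above background on the MET siRNA array, a bound of at least 1.15-fold lower with MET siRNA. With sc siRNA against DMSO the 3 probes gave −0.11 ± 0.20, −0.39 ± 0.21 and −0.26 ± 0.30. The control siRNA array, like the PHA665752 array, thus read somewhat lower than DMSO. With sc siRNA only the second probe did so by more than the scanner software's error. For the third probe the averaged spots gave this ratio a standard error of 0.091, which is smaller than the ratio but covers spot noise only.

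MDM4, the MDM2 relative that masks the activation domain of p53, read 331, 390.45, 423 and 425, which gave 0.45 ± 0.20 for PHA665752 over DMSO and −0.040 ± 0.20 for the MET siRNA, and stood at 0.60 with sc siRNA against DMSO. Its other probe gave 0.30 and 0.019. PPM1D (WIP1), a phosphatase that is another p53 target and ends the p53 response, gave 0.26 with PHA665752 and 0.35 with MET siRNA, and 0.080 and 0.44 at its other probe. Neither of these inhibitors passed 2-fold. TP63 and TP73, relatives of the factor, were not well above background on any array. Of the 18 genes listed as p53 relatives and regulators, 16 had a ratio. With PHA665752, 9 were above 0 and 1, the checkpoint kinase gene CHEK1, was lower past 2-fold, at −1.32 (signals of 2942 with DMSO and 1014 with PHA665752), beside 8.04% of all genes lower past 2-fold. With MET siRNA, 8 were above 0 and none passed 2-fold, beside 2.73% of all genes in either direction. The median of these regulators was 0.040 and −0.0064, close to the medians of all genes, 0.075 and −0.017. ATM, the kinase that signals DNA breaks to p53, differed between its 2 probes, which gave −0.31 and 0.47 with PHA665752, and no direction is given for it.

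The other regulators are given by role, the inhibitor ratio first and the knockdown ratio second. Of the damage kinases, ATR gave −0.73 and −0.26, with −0.68 and −0.31 at its other probe, and CHEK2 gave −0.59 and 0.30. Of the coactivators and partners of p53, TP53BP1 gave 0.84 and 0.066, and the acetyltransferase gene EP300 gave 0.55 and 0.027. The kinase gene HIPK2 gave 0.30 and 0.036, with 0.41 and −0.16 at its other probe. These 3 were higher with the inhibitor and, at their brightest probes, near 0 with the knockdown. In the ASPP family, which steers p53 toward or away from death genes, PPP1R13B gave 0.63 and 0.47 (0.19 and 0.021 at its other probe), TP53BP2 gave −0.13 and −0.32, and the inhibitory member PPP1R13L gave −0.32 and −0.059. CDKN2A, whose ARF product restrains MDM2, gave 0.22 and 0.11, with 0.32 and 0.11 at its other probe. Whether either probe reads the ARF transcript was not examined. The ubiquitin ligase genes RCHY1 and COP1 gave −0.012 and 0.014 with the inhibitor and −0.16 and −0.15 with the knockdown. USP7, a deubiquitinase of MDM2 and p53, gave 0.066 and −0.14, and with sc siRNA against DMSO it stood at −1.01, the only regulator past 2-fold there, beside 1.16% of all genes lower past 2-fold.

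TP53INP1, a nuclear stress protein that takes part in p53-dependent cell death and in autophagy, showed the largest ratio of the 9 genes with both treatments. Its brighter probe read 138, 507, 137 and 242. The log2 ratio was 2.09 ± 0.21 with PHA665752, a 4.27-fold higher level, and 0.77 ± 0.21 with MET siRNA, a 1.71-fold higher level. The other probe, much dimmer, read 14.1, 47.7, 15.9 and 28.1. It gave 1.97 ± 0.35 and 0.78 ± 0.35, the same order of the arrays and nearly the same ratios. TP53INP1 ranked at place 329 from the highest of 14322 genes with PHA665752 and at place 469 of 13647 with MET siRNA. The control siRNA array stood at 0.25 ± 0.21 against DMSO, within little more than its error.

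GDF15, a secreted cytokine of the TGF-β superfamily that rises in many kinds of cell stress and lowers appetite through a brainstem receptor, was the next highest of the 9 with PHA665752 and was also higher with MET siRNA. Its single probe read 434, 658, 482 and 715. It was 1.76-fold higher with the inhibitor (log2 ratio 0.81 ± 0.20) and 1.44-fold higher with the knockdown (0.52 ± 0.20). Both treated arrays lay above both control arrays. The sc siRNA array also stood 0.40 ± 0.20 above DMSO, a difference little smaller than that with MET siRNA.

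SESN1 belongs to the sestrins, which restrain the growth kinase complex mTORC1 and protect against oxidative stress. Its probe read 183, 129.73, 191 and 146. It stood at −0.28 ± 0.21 with the inhibitor and at −0.43 ± 0.21 with the knockdown, and the treated arrays were the lower ones. SESN1 was at place 12797 of 13647 genes with MET siRNA, and with sc siRNA against DMSO it stood at 0.32 ± 0.21. Together with MDM2 it was below 0 with both treatments under each of the 11 alternative ways of processing the arrays. The other sestrins had no shared course. SESN2, which ATF4 also induces, read 249, 169.98, 338 and 335 with log2 ratios of −0.34 and −0.059, while SESN3, a FOXO target, read 108, 230.33, 58.5 and 105 with log2 ratios of 1.30 and 0.80. SESN3 was the only sestrin past 2-fold, and only with PHA665752.

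FDXR, the mitochondrial ferredoxin reductase that feeds electrons into steroid and iron-sulfur cluster synthesis, gave a bright and even signal of 6479.6, 6609.7, 4936 and 6553. Its log2 ratio was 0.24 ± 0.20 with PHA665752, where it turned to −0.0033 when arrays were scaled on their median, and 0.36 ± 0.20 with MET siRNA. The sc siRNA array was the low one. Its partner FDX1, the ferredoxin that receives the electrons, gave 0.21 and 0.094.

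TP53I3 (PIG3), an oxidoreductase resembling quinone reductases and linked to reactive oxygen in p53-driven cell death, also gave bright signals. The brighter of its 2 probes read 26923, 35570, 23943 and 27486, with log2 ratios of 0.62 ± 0.20 for PHA665752 and 0.15 ± 0.20 for MET siRNA. The PHA665752 array was the high one. The other probe read 13559, 15142, 11418 and 13444 and gave smaller and larger values in turn, 0.37 ± 0.20 and 0.19 ± 0.20.

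BTG2 is an antiproliferative protein that recruits the CCR4-NOT deadenylase to mRNA. Its probe read 86.9, 83.5, 67.6 and 102. The log2 ratio with MET siRNA was 0.55 ± 0.22, place 821 of 13647 genes, whereas with PHA665752 it was 0.16 ± 0.21 and turned to −0.090 with median scaling and −0.10 with quantile normalization, so that no direction can be given for the drug. Its close relative BTG1 read 1106, 1816, 857 and 1360.2 and was higher with both treatments, by 0.93 and 0.62, and BTG3 stood at −0.84 and 0.099.

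ZMAT3 (Wig-1), a zinc finger protein that binds RNA and alters the stability and splicing of its targets, was measured over 10 spots. It read 94.0, 138, 51.1 and 56.6. The inhibitor gave a log2 ratio of 0.77 ± 0.21 and the knockdown 0.10 ± 0.24, the latter turning to −0.20 when arrays were centred on the probes well above background. Both transfected arrays were low, since sc siRNA stood at −0.63 ± 0.22 against DMSO, the lowest of the 9 genes in that comparison and at place 13749 of 14274. The spots of each array gave a standard error of 0.033 to 0.039 for these ratios, which covers spot noise only.

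RRM2B (p53R2) is the p53-induced small subunit of ribonucleotide reductase, which supplies deoxyribonucleotides for DNA repair and for mitochondrial DNA outside S phase. The brighter probe read 342, 488, 288 and 313, with log2 ratios of 0.73 ± 0.20 for PHA665752 and 0.072 ± 0.20 for MET siRNA. The other probe read 164, 169.93, 159 and 179 and gave 0.27 ± 0.21 and 0.13 ± 0.21, so the 2 probes differed in how much higher the PHA665752 array was. The subunits used in S phase went the other way with the drug. RRM2, the replicative small subunit, read 1367, 62.7, 608 and 536, 18.8-fold lower with the inhibitor (log2 ratio −4.23 ± 0.21) and little lower with the knockdown (−0.23 ± 0.20). RRM1, the large subunit that pairs with either small subunit, gave −1.87 and 0.057. RRM2 and RRM1 were also lower with sc siRNA than with DMSO, at −0.92 and −0.61.

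**Figure D2:**
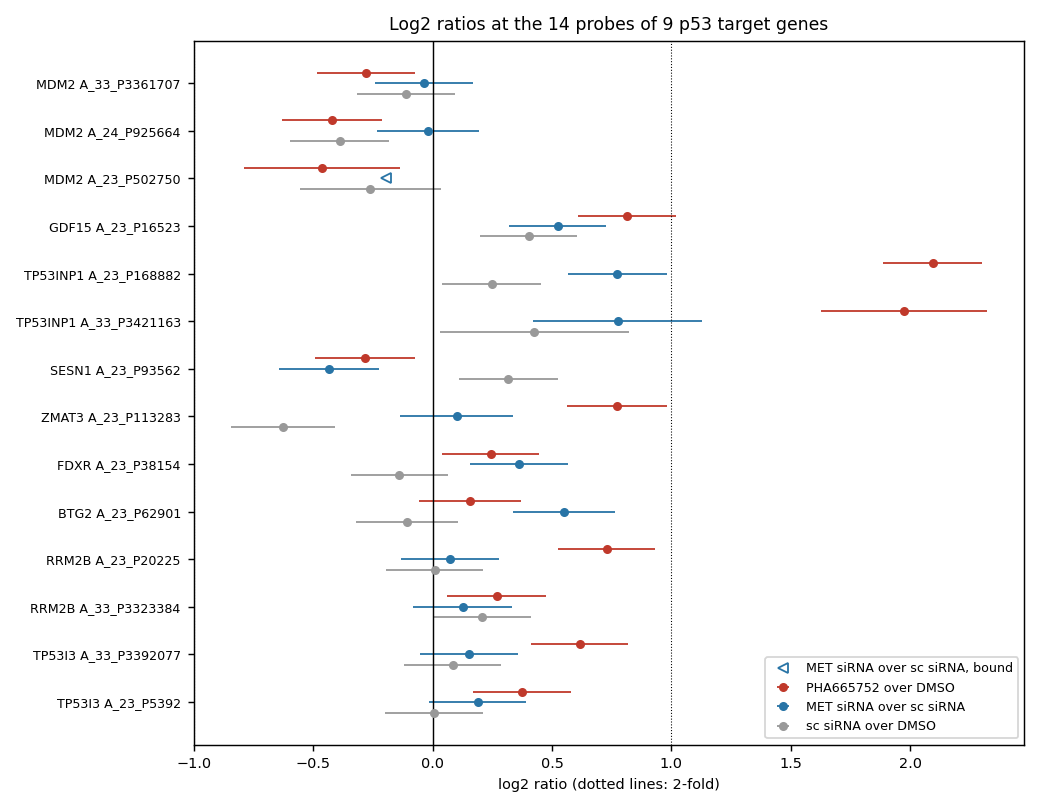
Log2 ratios at the 14 probes of the 9 genes (a line of points for each probe) for PHA665752 over DMSO, MET siRNA over sc siRNA and sc siRNA over DMSO, with bars of the scanner software's error on either side. The open triangle is a bound for the MDM2 probe not well above background on the MET siRNA array, the dotted line marks 2-fold, and only the TP53INP1 probes with PHA665752 lie beyond it (2.09 and 1.97).

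With PHA665752, 1 of the 9 genes, TP53INP1, was higher past 2-fold and none was lower, beside 13.1% of all genes higher and 8.04% lower past 2-fold. In the same comparison 7 of the 9 lay above 0, beside 54.9% of all genes, and their median log2 ratio was 0.62 against 0.075 over all genes. Of these 7, FDXR and BTG2 lay below 0 with median scaling, at −0.0033 and −0.090. GDF15, ZMAT3, RRM2B and TP53I3 lay at places 2469 to 3358 of 14322. MDM2 and SESN1 lay at places 10129 and 10171, in the lower part of the order.

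With MET siRNA none of the 9 passed 2-fold, beside 2.04% of all genes higher and 0.696% lower. Again 7 of the 9 lay above 0, beside 47.0% of all genes, with a median of 0.15 against −0.017. When arrays were centred on the probes well above background this median became −0.15, and ZMAT3, TP53I3 and RRM2B turned below 0, while TP53INP1, GDF15, BTG2 and FDXR stayed above it. These 4 held places 469, 892, 821 and 1539 of 13647.

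The drug and siRNA comparisons share no array. The same 7 genes (GDF15, TP53INP1, ZMAT3, FDXR, BTG2, RRM2B and TP53I3) were above 0 in both, beside 35.2% of all genes measured in both, and MDM2 and SESN1 were below 0 in both. Of the 7, only TP53INP1 and GDF15 stayed above 0 in both under each of the 11 alternatives. FDXR and BTG2 turned below 0 with PHA665752, and ZMAT3, RRM2B and TP53I3 with MET siRNA, under at least 1 of them. The order within the 7 was not the same. ZMAT3, RRM2B and TP53I3 followed GDF15 with PHA665752, whereas with MET siRNA these 3 stood at 0.072 to 0.15 and BTG2 came next to TP53INP1. Whether a gene differed between the treatments could not be tested.

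The control siRNA itself was set against DMSO to show how far the control arrays lie apart. The pair differs by the transfection and the vehicle, and each array also serves in another comparison. None of the 9 genes passed 2-fold there, beside 2.89% of all genes higher and 1.16% lower, 5 of the 9 lay above 0 (48.5% of all genes) and the median was 0.0077. The single values ran from −0.63 (ZMAT3) to 0.40 (GDF15). At the brightest probes, TP53INP1, GDF15, ZMAT3, RRM2B and TP53I3 with PHA665752 and TP53INP1, BTG2 and GDF15 with MET siRNA had ratios above 0.40. None of the 9 lay below −0.63 with either treatment. That span is of 9 different genes and not of repeats of a gene, so it sets no limit of noise. Over all genes the ratios of sc siRNA over DMSO ran from −3.76 to 5.79.

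The wider set of p53 targets was split by what the products do. It comprised 98 other target genes with a probe measured on every array, 96 of which had a ratio with PHA665752 and 94 with MET siRNA. With PHA665752, 18 were higher and 6 lower past 2-fold, beside 13.1% and 8.04% of all genes, and the median of the wider set, 0.064, was close to the 0.075 of all genes. The 18 include 3 bounds (SPATA18, GLS2 and CMBL), well above background on the PHA665752 array and not on the DMSO array. Over all genes 789 of 14322 ratios were bounds. With both arrays required to be well above background the median of the wider set was 0.062. With MET siRNA 1 was higher and 1 lower, beside 2.04% and 0.696%, with a median of 0.017. The higher median of the 9 genes with the drug was not seen over the wider set.

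Among 10 arrest genes the median with PHA665752 was −0.67, 1 being higher and 2 lower past 2-fold, beside 13.1% and 8.04% of all genes. CDKN1A, the cyclin-dependent kinase inhibitor p21 through which p53 holds cells in G1, read 167, 74.7, 143 and 147, log2 ratios of −0.95 ± 0.21 for the inhibitor and −0.0076 ± 0.21 for the knockdown. It was low on the PHA665752 array alone. GADD45A, a stress sensor that slows the cycle and aids repair, read 3047, 6283, 5004 and 6952. It was higher with PHA665752, at 1.26, and stood at 0.43 with MET siRNA. With sc siRNA against DMSO it stood at 0.97, more than with MET siRNA over sc siRNA.

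Among 23 apoptosis genes the median was −0.044 for the inhibitor and 0.13 for the knockdown. TNFRSF10C, a decoy receptor for the death ligand TRAIL, read 84.0, 333, 63.8 and 110.41, the largest ratio of the wider set with PHA665752 at 2.20, and 0.75 with MET siRNA. BBC3 (PUMA), a BH3-only protein that triggers mitochondrial cell death, read 855, 2481, 1043 and 1971, with log2 ratios of 1.75 and 0.87. Going the other way, AEN, an apoptosis-enhancing nuclease, read 486, 56.5, 423 and 298, with log2 ratios of −2.89 and −0.55. BAX, the pore-forming effector of mitochondrial death, gave −0.75 with PHA665752 and 0.32 with MET siRNA.

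Among 8 DNA repair genes the median was −0.28 for the inhibitor and 0.19 for the knockdown. XPC, which recognises damaged DNA in nucleotide excision repair, was higher with the drug at 1.07. PCNA, the sliding clamp of replication and repair, read 10045, 1645, 5653 and 5471, with log2 ratios of −2.40 and −0.094. DDB2, which works with XPC in damage recognition, gave −0.68 and 0.45 at its brighter probe, and the PHA665752 ratio of its other probe was −1.16.

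Among 18 metabolism and stress genes the median with PHA665752 was 0.71, 14 lying above 0 (54.9% of all genes), and 7 were higher and none lower past 2-fold, beside 13.1% and 8.04% of all genes. Of the 18 ratios, 3 were bounds, those of SPATA18, GLS2 and CMBL. These 3 are among the 7, and they had a ratio only because the PHA665752 array was well above background. They thus could enter only as higher, and they raise the count and the median. FUCA1, a lysosomal fucosidase, read 302, 1024, 276 and 370.27, log2 ratios of 1.97 for the inhibitor and 0.37 for the knockdown. SPATA18 (Mieap), which takes part in mitochondrial quality control, read 9.43, 32.6, 24.9 and 27.3, at least 3.48-fold higher with the inhibitor because the DMSO array was not well above background, and 0.088 in log2 with the knockdown. CPT1C, a form of carnitine palmitoyltransferase 1, was the only gene of the wider set higher past 2-fold with both treatments, from a weak signal of 16.8, 43.8, 10.0 and 23.3. The inhibitor gave a log2 ratio of 1.59, and the knockdown a level at least 2.21-fold higher, a bound because the sc siRNA array was not well above background. The median of this group with MET siRNA was 0.028 over 16 genes.

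Of the 37 remaining targets, 6 were higher and 1 lower past 2-fold with PHA665752, beside 13.1% and 8.04% of all genes, and their median was 0.065. EPHA2, a receptor tyrosine kinase for ephrins, read 828, 69.5, 578 and 278, and its log2 ratios of −3.36 for the inhibitor and −1.10 for the knockdown made it the only gene of the wider set lower past 2-fold with both. TRIM22, an antiviral ubiquitin ligase that interferon also induces, read 139.74, 389.5, 2272 and 3389, so that its difference between sc siRNA and DMSO (4.28) exceeded that between PHA665752 and DMSO (1.69).

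**Figure D3:**
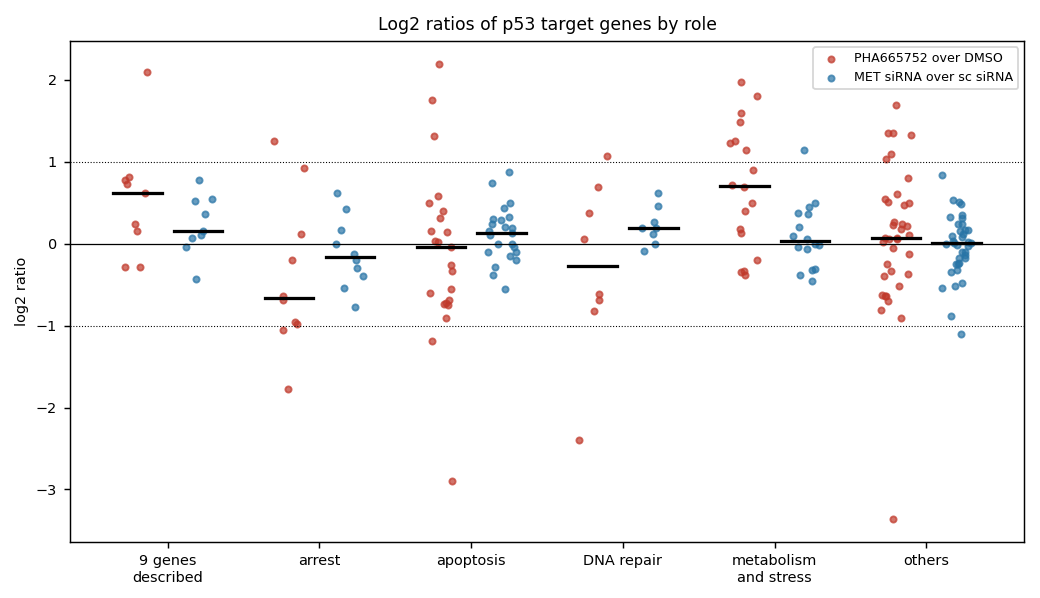
Log2 ratio of each p53 target gene by the role of its product (horizontal groups, the 9 genes first), for PHA665752 over DMSO and MET siRNA over sc siRNA; each point is a gene at its brightest probe, bounds included at their value, black bars are medians and dotted lines mark 2-fold. Medians with PHA665752 were 0.62 for the 9 genes, −0.67 for arrest, −0.28 for DNA repair and 0.71 for metabolism and stress genes, and the points with MET siRNA lie nearer 0.

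Relatives of the 9 genes were compared within each family. Of 18 relatives and partners with a ratio, 4 were higher and 2 lower past 2-fold with PHA665752, beside 13.1% and 8.04% of all genes, and none passed 2-fold with MET siRNA, beside 2.73% in either direction. TP53INP2, which shares the autophagy role of TP53INP1, read 153, 300.7, 86.6 and 140.25, with log2 ratios of 1.19 ± 0.21 and 0.65 ± 0.21. Both members of that family were thus higher with both treatments, each against its own control. For TP53INP2 the sc siRNA array was the low one, and the signal with MET siRNA was not above that with DMSO. ZMAT1, another zinc finger gene, was higher with PHA665752 at 1.87 (1.95 at its other probe), as was VAT1, a TP53I3-like oxidoreductase, at 1.33 (1.31 at its other probe). ZMAT2 and ZMAT5 gave 0.39 and 0.039 with PHA665752, and ZMAT4 was not well above background on any array. The quinone reductase relatives CRYZ and CRYZL1 gave 0.081 and 0.35 with PHA665752 and −0.073 and −0.035 with MET siRNA. TOB2, of the BTG and TOB family, gave 0.31 and −0.013, and its relatives TOB1 and BTG4 had no usable spot on the MET siRNA array. CYP11A1, a steroid enzyme that FDXR and FDX1 supply with electrons, gave 0.66 and 0.12. GFRAL, the receptor of GDF15, was not well above background on any array, and RET, the kinase through which that receptor signals, gave 0.17 with PHA665752 and −0.42 with MET siRNA.

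**Figure D4:**
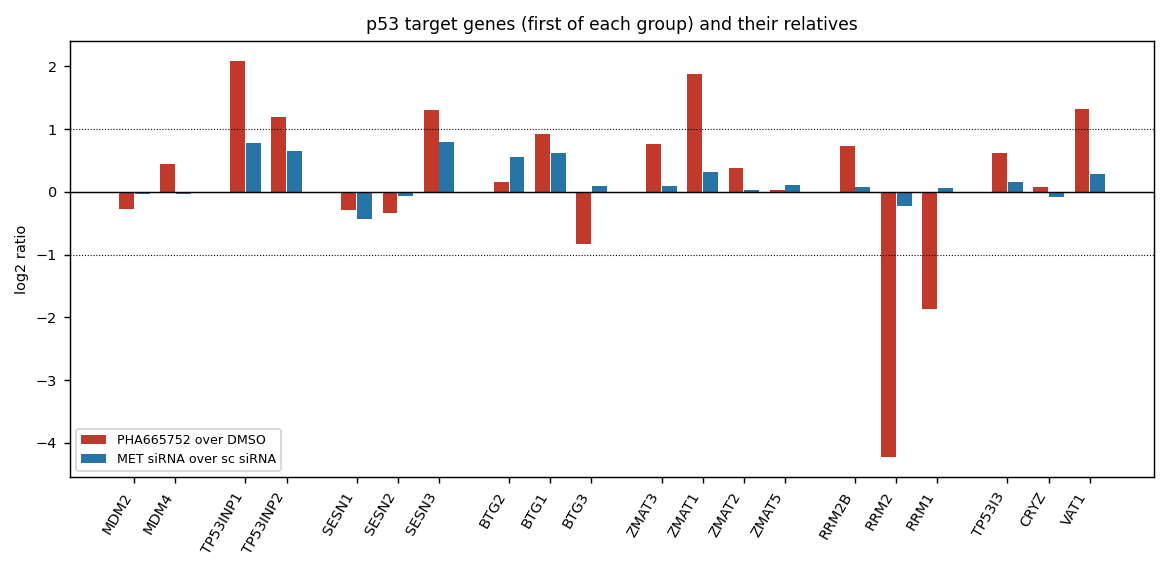
Log2 ratios of 7 of the 9 genes and of relatives in the same family or enzyme (bars start at 0, groups from left to right, the p53 target first in each), for PHA665752 over DMSO and MET siRNA over sc siRNA, with dotted lines at 2-fold. TP53INP1 and TP53INP2 are above 0 with both treatments, SESN3 (1.30) stands opposite SESN1 (−0.28) with PHA665752, and RRM2B (0.73) stands opposite RRM2 (−4.23) and RRM1 (−1.87).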

How the data were processed

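Labelled RNA of 4 Hs746T cultures was hybridised to 1-colour Agilent human 44K V2 arrays. The authors deposited the scanner output of Agilent Feature Extraction (11.5.1.1 per the file headers). Its processed signal is the background-subtracted intensity of a spot on a linear scale, with no normalization between arrays. The deposited series matrix holds the same intensity and served as an alternative.

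Control and outlier-marked spots were left out, the spots of a probe averaged as log2, and the 75th percentile of the array subtracted. Probes were named by RefSeq accession through a GRCh38.p14 table (75.5% of probes), used for names and promoter windows; the array's own annotation is on another build. The brightest probe with a value on every array stood for its gene. Where only 1 array of a pair was well above background the ratio is a bound, and where neither was no ratio was taken. A ratio past 2-fold is a rule of size, as 1 array per condition allows no test; the number of arrays limits the precision. Probes spotted 10 times gave a spot noise of 0.0768 for a log2 ratio.

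The 9 genes and the lists of regulators, other targets, relatives and stress genes were chosen with earlier results of these data known, and 1 gene of the regulator list is not reported here. Text names each probe of the 9 genes, the regulators and relatives with a ratio, MET, the 3 largest rises and 3 largest falls with PHA665752 among other targets well above background on both arrays, and targets past 2-fold with both treatments; CDKN1A, GADD45A, BAX, XPC, DDB2, TRIM22 and SPATA18 were added after their values were seen. Results were recomputed under 9 listed settings and 2 more chosen after seeing the data. Scripts were tested on simulated data (Python 3.11.15, numpy 2.4.6, pandas 2.3.3, R 4.3.3 with limma 3.58.1).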

Additional observations from a re-analysis of the deposited data

How the results depend on the processing

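TP53INP1 remained past 2-fold with PHA665752 under each of the 11 alternatives, at 1.74 to 2.15, and none of the other 8 genes passed 2-fold in any comparison under any of them. The median of the 9 genes with PHA665752, 0.62, was 0.37 with scaling on the 50th percentile and with a floor of 5 followed by median scaling, 0.52 with normexp background and with centring on probes well above background, and 0.49 with the median of a gene's probes. With MET siRNA the median of 0.15 became −0.15 with centring on probes well above background. With sc siRNA over DMSO, 0.0077 became −0.091 with the 50th percentile and with the floor. The same 2 settings gave −0.0033 for FDXR and −0.090 for BTG2 with PHA665752 and −0.015 for TP53I3 with sc siRNA; quantile normalization gave −0.10 for BTG2 with PHA665752, normexp 0.0026 for BTG2 with sc siRNA, and centring on probes well above background −0.20 for ZMAT3 and −0.15 for TP53I3 with MET siRNA. Quantile normalization and normexp do not move all genes by the same amount. Under quantile normalization BTG2 went from 0.16 to −0.10 with PHA665752, while the median of all genes went from 0.075 to 0.029. The 50th percentile, floor and centring settings move all genes together by construction. The median of all genes moved by −0.25 with PHA665752 under the 50th percentile and the floor. With MET siRNA that median moved by −0.30 under centring on probes well above background. Without a filter on dim probes the median of all genes moved by 0.13 with PHA665752, where more genes enter and the ratios of the 9 genes are the same. Of 297 single values, 207 stayed within spot noise of the main value, 80 moved further and 10 turned in sign from a main value past that noise. The settings that change only the filter on dim probes could not move these values. For a gene with 1 probe, neither could the median of a gene's probes. The 207 thus include values that could not differ from the main value. The probes that stand for the 9 genes were well above background on every array. Ratios of signals under about 30 (the dimmest probes of TP53INP1 and MDM2, CPT1C) are limited by background. No paired analysis was possible because each condition has 1 array.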

Other observations

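GDF15 and SESN2 are also targets of ATF4 in the integrated stress response, and 7 genes of a list for that response had a ratio. With MET siRNA, 3 of the 7 were higher past 2-fold, beside 2.04% of all genes, and their median was 0.80; with PHA665752, 1 was higher and 1 lower, beside 13.1% and 8.04% of all genes, with a median of −0.34. ATF3, a stress-induced transcription factor, read 1614, 16994, 3007 and 9882 in the same order of arrays as above. The inhibitor gave a log2 ratio of 3.61 ± 0.20 and the knockdown 1.67 ± 0.20, and 2 further probes gave 2.88 and 3.66 with the inhibitor and 1.57 and 1.60 with the knockdown. The remaining probe of the 4 gave 0.25 and 0.029. TRIB3, a pseudokinase that ATF4 and DDIT3 induce, read 687, 535, 1374 and 3013, and CHAC1, an enzyme that breaks down glutathione, read 332, 221, 702 and 1604. Both were higher with MET siRNA, at 1.09 and 1.14, and stood at −0.15 and −0.38 with PHA665752. The sc siRNA array was higher than DMSO for TRIB3, CHAC1, DDIT3 and ATF3, at 1.25, 1.33, 1.34 and 1.15, beside 2.89% of all genes higher past 2-fold there. How these genes bear on the GDF15 values was not tested.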
